A study of Homo sapiens with 16 samples.

Results

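Integrins and laminins are the cell surface receptors and basement membrane ligands through which cells hold on to their matrix. The genes described here are those whose symbols name a subunit of either family (ITGA, ITGB, LAMA, LAMB or LAMC followed by the number or letter of the chain) and occur a single time in both deposited expression tables. Described are 35 genes, 16 integrin α, 8 integrin β and 11 laminin chains, among 21031 symbols shared by the tables. ITGA10 was listed in the HiSeq table only and was not included.

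An integrin is a heterodimer of an α and a β subunit, and the α subunit largely sets which matrix protein is bound. The β1 subunit (ITGB1) pairs with many α subunits, among them the laminin receptors α3 and α6, the collagen receptors α1 and α2 and the fibronectin receptor α5, whereas β5 pairs with αV. A laminin is a heterotrimer of an α, a β and a γ chain. LAMB3 is known as a chain of epithelial laminin, together with the α chain LAMA3. LAMA4 is the α chain of the mesenchymal and endothelial laminins, and LAMB1 and LAMC1 are the most widely used β and γ chains. Fibrosarcoma cells such as HT1080 are a much used model for integrin-dependent invasion.

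RNA was sequenced from HT1080 cells, a human fibrosarcoma line, in which an inducible full-length XIST cDNA had been placed by Flp recombination at an FRT site on 1p, 8p or 12q. All cells carried a constitutive Tet repressor, so that XIST was transcribed when doxycycline (DOX, 1 μg/mL) was added for 5 days. The HiSeq table held 6 libraries, namely 8p XIST No DOX, 2 of 8p XIST DOX, 1p XIST DOX, 12q XIST DOX and a 1p clone with an empty vector and DOX. The NextSeq table held 4, namely 1p and 12q XIST, each with No DOX and with DOX. The 12q clone came from another Tet repressor subclone than the 1p and 8p clones, and each site was otherwise represented by single-cell clones, so that the site, the subclone and the clone cannot be told apart. According to the methods of the study, the 8p DOX libraries were made from different clones, so at least 1 of them may not share its clone with the No DOX library. The vector clone had no No DOX library, so an effect of DOX itself and an effect of XIST cannot be told apart.

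Expression was measured in FPKM, that is fragments scaled to transcript length and library size, which can be compared between genes but does not give read counts, so the depth is unknown. Summed FPKM ranged from 317539 to 409082 in HiSeq and from 403708 to 415638 in NextSeq libraries. XIST itself stood at 3.38 FPKM in 8p No DOX and at 99.0 and 89.7 FPKM with DOX, and at 0.0705 FPKM in the vector library. The NextSeq pairs went from 4.17 to 22.0 FPKM in 1p and from 3.75 to 67.6 FPKM in 12q. All 9 fibroblastic and mesenchymal marker genes were at 1 FPKM or more in every library, with sums of 2420 to 4180 FPKM. Of 6 epithelial markers, 3 were under 1 FPKM in every library. None of the 6, with sums of 0.321 to 6.54 FPKM and a highest value of 2.96 FPKM for CLDN4, reached this level in every library. Nor did any of 5 platelet and endothelial markers, with sums of 0.512 to 8.08 FPKM and a highest value of 7.06 FPKM for CDH5.

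The proximal promoters of 3 genes on which the results turn are shown here, since they are the most abundant subunit (ITGB1), the most abundant laminin chain in most libraries (LAMB3) and the chain that differed most between clones (LAMA4). Each sequence is the 250 bases before a RefSeq start site on GRCh38.p14, written 5′ to 3′ on the strand of the gene. Capitals mark the places where either strand holds the letters of a searched motif. The motif GGGCGG is known as the GC box to which the SP family of factors binds. The element to which AP-1 binds was searched as TGACTCA in both orientations. A TATA box was searched with the letters TATAAA, and no such match fell in the windows shown.
ITGB1, chr10:32958231-32958480, minus strand: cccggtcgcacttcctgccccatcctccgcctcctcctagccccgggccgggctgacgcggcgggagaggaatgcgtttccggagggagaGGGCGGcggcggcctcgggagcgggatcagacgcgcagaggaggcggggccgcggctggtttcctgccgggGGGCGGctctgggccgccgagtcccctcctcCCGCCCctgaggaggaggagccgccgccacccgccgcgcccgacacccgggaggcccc
LAMB3, chr1:209651375-209651624, minus strand: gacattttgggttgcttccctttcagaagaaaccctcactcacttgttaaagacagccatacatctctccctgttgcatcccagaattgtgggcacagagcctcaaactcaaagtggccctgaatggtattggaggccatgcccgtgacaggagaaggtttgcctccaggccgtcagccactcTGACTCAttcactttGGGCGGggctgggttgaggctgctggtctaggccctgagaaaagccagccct
LAMA4, chr6:112254568-112254817, minus strand: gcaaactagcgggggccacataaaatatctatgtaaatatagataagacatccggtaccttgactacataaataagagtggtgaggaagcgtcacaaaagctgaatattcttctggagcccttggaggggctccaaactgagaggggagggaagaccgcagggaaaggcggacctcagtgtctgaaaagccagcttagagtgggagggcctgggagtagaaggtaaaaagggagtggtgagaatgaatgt
The ITGB1 window held 3 GC boxes and the LAMB3 window 1 GC box and 1 AP-1 element, while the LAMA4 window had no match to these letters. LAMB3 has 3 start sites in the reference table and ITGB1 has 2, and the data do not tell which was used. GC boxes were found in 42.6 % of all 35116 promoter windows, the AP-1 element in 4.2 % and the TATA box in 10.7 %. Of the 35 subunit genes, 25 had an entry, with 32 windows, of which 17 held a GC box, 2 the AP-1 element (LAMA3 and LAMB3) and 2 a TATA box (ITGA6 and the other start of ITGB1).

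In these cells 16 of the 35 subunits averaged at least 1 FPKM in both tables, and ITGAX did so in the HiSeq table only. The subunits that passed were 8 α and 2 β integrins and 7 laminin chains. The integrin repertoire was led by β1. ITGB1 (chr10:33229251-33287299 on hg18) was the most abundant subunit in every library. It stood at 250 FPKM in 8p No DOX, 308 and 289 in 8p DOX, 187 in 1p XIST DOX, 195 in the vector library and 181 in 12q DOX. In the NextSeq table it stood at 359 and 366 FPKM in 1p (No DOX and DOX) and at 245 and 281 in 12q. ITGB1 made up 78.9 to 89.9 % of the summed β integrin FPKM of a library.

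ITGB5, the partner of αV in a vitronectin receptor, was the other β subunit that passed. It stood at 26.2 FPKM in 8p No DOX, 34.8 and 32.1 in 8p DOX, 48.7 in 1p XIST DOX, 34.2 in the vector library and 32.5 in 12q DOX. The NextSeq values were 58.8 and 61.2 FPKM in 1p and 42.1 and 40.8 in 12q. ITGB8, next by average in the HiSeq table, was at 1.76 FPKM in 8p No DOX, 0.904 and 0.886 in 8p DOX, and 0.422, 0.1 and 0.146 in 1p XIST, vector and 12q DOX. NextSeq ITGB8 was 0.344 and 0.525 FPKM in 1p and 0.0966 and 0.0673 in 12q. ITGB2, the leukocyte integrin β chain and next in the NextSeq table, was at 0.021 FPKM in 8p No DOX, 0.038 and 0.0364 in 8p DOX, and 0.191, 0.471 and 0.801 in 1p XIST, vector and 12q DOX. In the NextSeq table ITGB2 stood at 0.345 and 0.296 FPKM in 1p and at 1.01 and 0.865 in 12q.

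Among α subunits the laminin receptor chains ITGA3 and ITGA6 had the highest averages in both tables. ITGA3 was at 121 FPKM in 8p No DOX, 187 and 178 in 8p DOX, and 179, 171 and 122 in 1p XIST, vector and 12q DOX. Its NextSeq values were 175 in both 1p libraries and 138 and 115 FPKM in 12q. ITGA6 was at 89.7 FPKM in 8p No DOX, 126 and 114 in 8p DOX, and 62.1, 86.3 and 87.2 in the other HiSeq clones in the same order. NextSeq ITGA6 was 96.6 and 99.8 FPKM in 1p and 111 and 125 in 12q. ITGA3 and ITGA6 together made up 64.6 to 77.1 % of the summed α integrin FPKM.

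The fibronectin receptor subunit ITGA5 followed by average, and in HiSeq 1p XIST DOX it was above ITGA6. ITGA5 was at 41.6 FPKM in 8p No DOX, 60.1 and 58.0 in 8p DOX, and 67.5, 51.6 and 55.3 in 1p XIST, vector and 12q DOX, and the NextSeq libraries held 92.0 and 87.4 in 1p and 81.5 and 70.5 in 12q. ITGA2, which binds collagen with β1, was at 12.3 FPKM in 8p No DOX, 18.3 and 16.3 in 8p DOX and 16.2, 8.43 and 23.9 in the other HiSeq clones. NextSeq ITGA2 was 21.6 and 22.8 FPKM in 1p and 31.7 and 30.9 in 12q. ITGAV was at 11.1 FPKM in 8p No DOX, 13.2 and 12.8 in 8p DOX and 6.21, 8.47 and 11.0 in the other HiSeq clones. NextSeq ITGAV was 18.9 and 17.8 FPKM in 1p and 18.2 and 20.4 in 12q. The second collagen receptor subunit, ITGA1, was at 1.73 FPKM in 8p No DOX, 2.52 and 2.24 in 8p DOX, and 0.774, 0.416 and 1.70 in the other HiSeq clones, with 1.30 and 1.29 in NextSeq 1p and 2.70 and 2.17 in 12q. ITGAE stayed between 0.544 and 2.77 FPKM in all libraries.

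**Figure D1:**
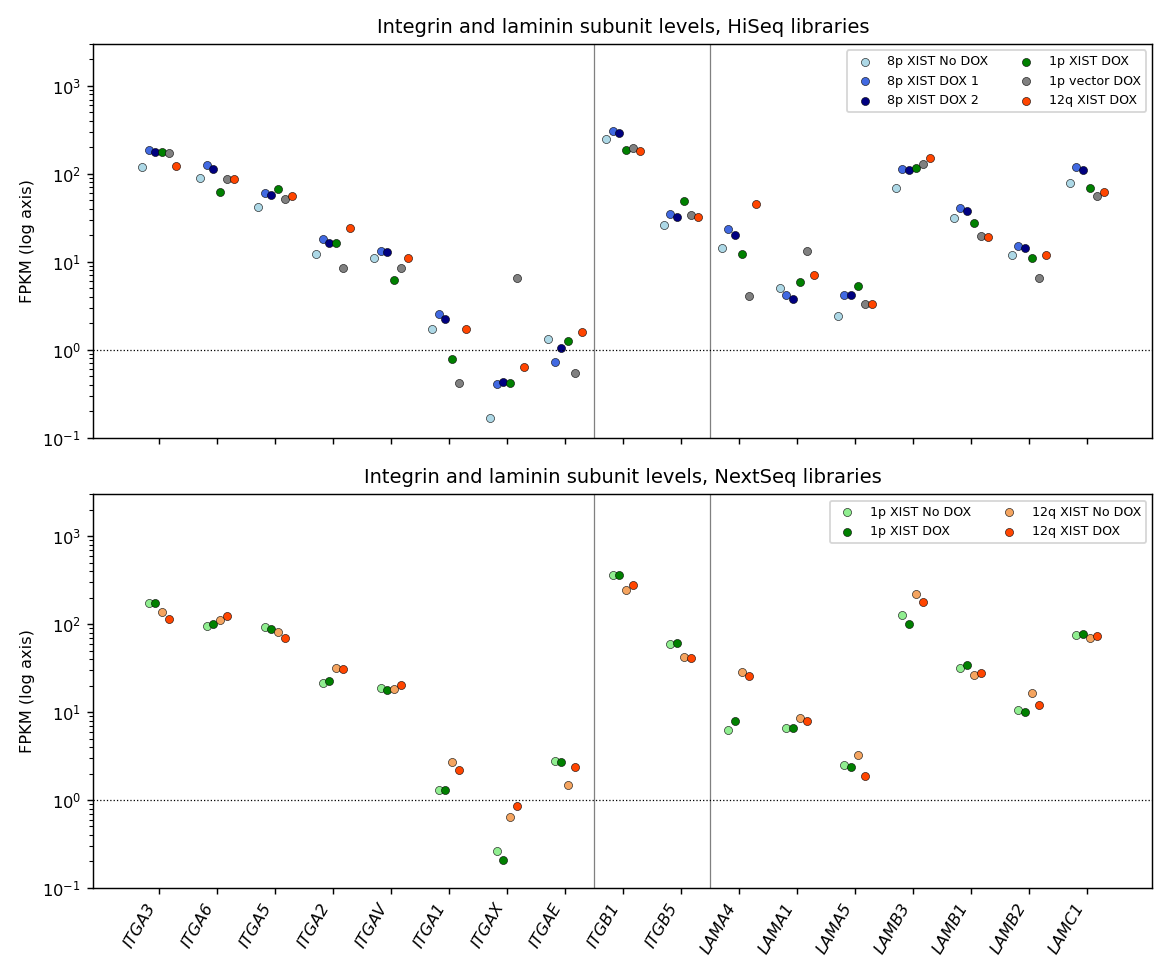
FPKM on a log axis for the 17 subunits that averaged at least 1 FPKM in either table, with a point for each HiSeq (top) or NextSeq (bottom) library. Grey lines part α integrins, β integrins and laminins, the dotted line marks 1 FPKM, and ITGB1 is the highest in every library, from 181 to 366 FPKM.

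For the laminins, the β3, γ1 and β1 chains averaged above every α chain in both tables, although LAMA4 was above LAMB1 in HiSeq 12q DOX and in NextSeq 12q No DOX. LAMB3 (chr1:207854840-207892443 on hg18) was at 68.2 FPKM in 8p No DOX, 114 and 110 in 8p DOX, and 118, 130 and 150 in 1p XIST, vector and 12q DOX. Its NextSeq values were 126 and 99.4 FPKM in 1p and 223 and 180 in 12q. LAMC1 was at 79.5 FPKM in 8p No DOX, 120 and 110 in 8p DOX, and 68.3, 56.3 and 61.5 in the other HiSeq clones, and varied little in NextSeq libraries (75.2, 77.5, 70.2 and 73.2). LAMC1 was above LAMB3 in 8p No DOX and 8p DOX 1, and LAMB3 led in the libraries of the other clones. LAMB1 was at 31.4 FPKM in 8p No DOX, 40.6 and 37.5 in 8p DOX, and 27.7, 19.8 and 19.2 in the other HiSeq clones, with 31.7 and 34.6 in NextSeq 1p and 26.6 and 28.0 in 12q. The ratio of LAMC1 to LAMB1 stayed between 2.24 and 3.2 in all 10 libraries. LAMA3, the α chain that goes with LAMB3 in epithelial laminin, was between 0.0393 and 0.164 FPKM, so that LAMB3 stood 691 to 3300 times above it.

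LAMA4 (chr6:112535826-112682521 on hg18) was the highest α chain in 8 of the 10 libraries and had the widest span of the laminin chains that passed, 11.1-fold in HiSeq and 4.64-fold in NextSeq libraries. It was at 14.5 FPKM in 8p No DOX, 23.3 and 20.3 in 8p DOX, 12.4 in 1p XIST DOX, 4.07 in the vector library and 45.0 in 12q DOX. The NextSeq values were 6.18 and 7.86 FPKM in 1p and 28.7 and 25.6 in 12q. LAMA1, an α chain of the early embryo, was at 4.97 FPKM in 8p No DOX, 4.19 and 3.80 in 8p DOX, and 5.92, 13.3 and 7.01 in 1p XIST, vector and 12q DOX, with 6.68 in both NextSeq 1p libraries and 8.67 and 7.96 in 12q. LAMA1 was above LAMA4 in the vector library and in NextSeq 1p No DOX. LAMB2 was at 11.8 FPKM in 8p No DOX, 15.0 and 14.5 in 8p DOX, and 10.9, 6.54 and 12.0 in the other HiSeq clones, with 10.5 and 9.93 in NextSeq 1p and 16.7 and 12.0 in 12q. LAMA5 was at 2.44 FPKM in 8p No DOX, 4.18 in both 8p DOX libraries, and 5.32, 3.27 and 3.32 in the other HiSeq clones, with 2.51 and 2.38 in NextSeq 1p and 3.29 and 1.86 in 12q.

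**Figure D2:**
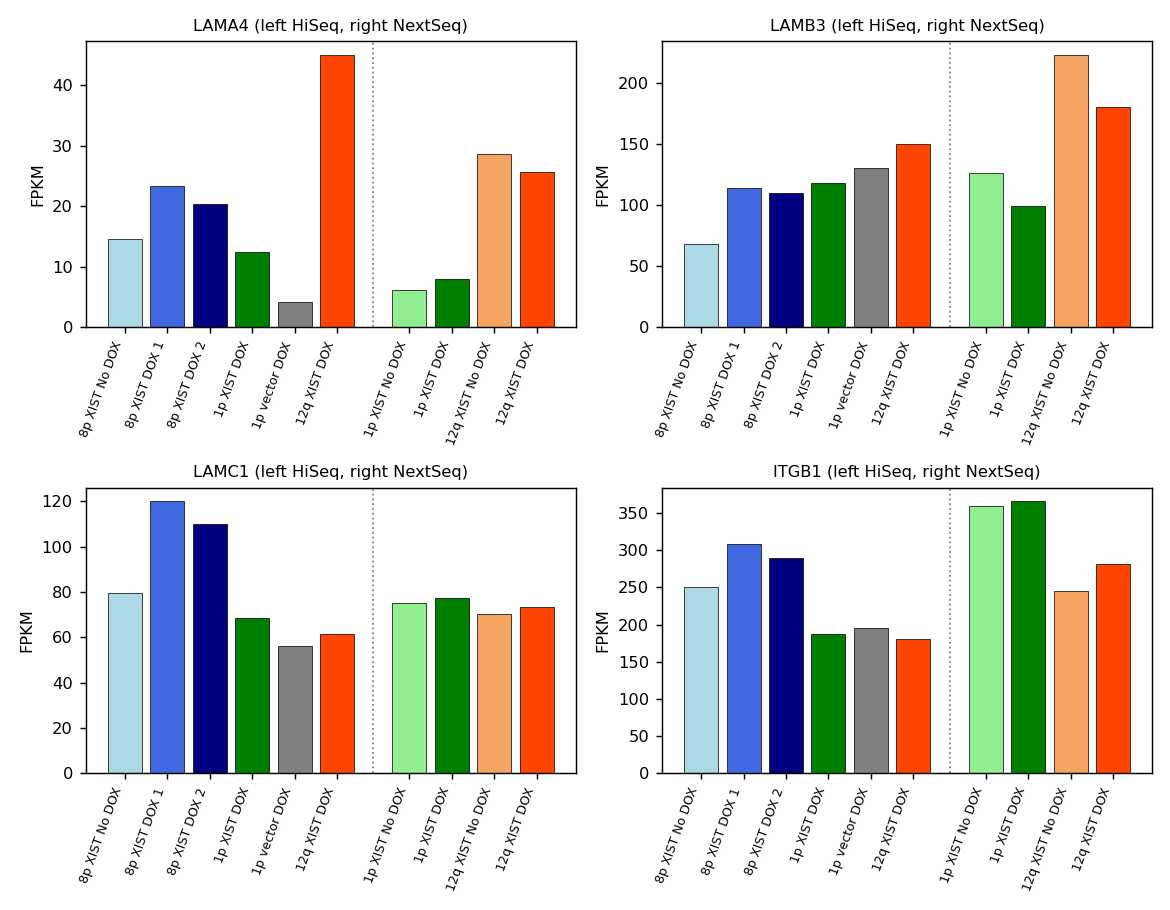
FPKM of LAMA4, LAMB3, LAMC1 and ITGB1, with a bar for each library and no error bars since each bar is 1 library. LAMA4 and LAMB3 are highest in the 12q libraries of each table (45.0 and 150 FPKM in HiSeq), and within HiSeq LAMC1 and ITGB1 are highest in the 8p libraries (79.5 to 120 and 250 to 308 FPKM).

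The 18 subunits below the filter in both tables reached at most 1.76 FPKM, the ITGB8 value in 8p No DOX. They were ITGA2B, ITGA4, ITGA7, ITGA8, ITGA9, ITGA11, ITGAL and ITGAM among the α integrins, with no value over 0.218 FPKM, ITGB2, ITGB3, ITGB4, ITGB6, ITGB7 and ITGB8 among the β integrins, and LAMA2, LAMA3, LAMB4 and LAMC3, with no value over 0.259 FPKM. ITGA4 and ITGA8 were listed at 0 in all 10 libraries. ITGB3, the other common partner of αV, was between 0 and 0.0246 FPKM in the 8p and 1p XIST HiSeq libraries, 0.483 in the vector library and 0.535 in 12q DOX. In NextSeq libraries ITGB3 was at 0.0419 and 0.105 FPKM in 1p and at 0.836 and 0.799 in 12q.

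Clones were compared first in the NextSeq table, where 12q and 1p each had a library with No DOX and a library with DOX. The 12q clone had more LAMA4 and LAMB3 and less ITGB5, ITGA3 and ITGB1 than the 1p clone. Limma on log2(FPKM + 1), with the DOX treatment as a covariate and a Benjamini-Hochberg adjusted p under 0.05, called 10 of the 16 subunits tested, where 32.8 % of all 11397 genes were called. Of these, 6 were higher in 12q and 4 lower. The median difference was 0.047 over the 16 subunits and 0.016 over all genes. The spread came from 4 libraries with 1 residual degree of freedom, so the p-values rest largely on the spread limma shares across genes. A fold on this scale understates the change of genes with low values.

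LAMA4 was 3.52-fold higher in 12q (log2 difference 1.82 ± 0.13 SE, limma adjusted p = 0.00378). LAMB3 was higher by 0.83 ± 0.06 on the log2 scale (limma adjusted p = 0.00342). The 4 other subunits that were higher had smaller differences, namely ITGA1 (0.58 ± 0.14), ITGA2 (0.48 ± 0.07), LAMB2 (0.44 ± 0.11) and ITGA6 (0.26 ± 0.06), with adjusted p between 0.0128 and 0.0435. The 4 lower subunits were ITGB5 (-0.52 ± 0.06), ITGA3 (-0.47 ± 0.08), ITGB1 (-0.46 ± 0.07) and LAMB1 (-0.27 ± 0.06), with limma adjusted p from 0.00911 to 0.0369.

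The 6 subunits that did not pass were ITGA5 (-0.24 ± 0.06, limma adjusted p = 0.0501), LAMA1 (0.28 ± 0.08), ITGAE (-0.37 ± 0.16), ITGAV (0.07 ± 0.09), LAMA5 (0.02 ± 0.17) and LAMC1 (-0.09 ± 0.06). The 95 % interval of the LAMC1 difference ran from -0.24 to 0.06. With either 1p library left out, LAMA4 was the single subunit called, and there were 8 without the 12q No DOX and 9 without the 12q DOX library. The genes within 10 Mb of LAMA4 had a median difference of 0.003 (57 genes), and those around LAMB3 one of 0.192 (95 genes).

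The HiSeq table held 1 library each of 12q XIST DOX and 1p XIST DOX, which are not among the NextSeq libraries and were set beside this result after the data had been seen. All 10 called subunits differed in the same direction there, as did 88.5 % of the 3414 called genes that were tested in both tables. Of these, LAMA4 again differed most (45.0 against 12.4 FPKM), ITGA1 stood at 1.70 against 0.774 FPKM, and ITGB1 was nearly level (181 against 187 FPKM). ITGAV, nearly level in the NextSeq fit (0.07 ± 0.09), stood at 11.0 against 6.21 FPKM in this pair. With 1 library per arm the size of these differences has no replicate check.

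**Figure D3:**
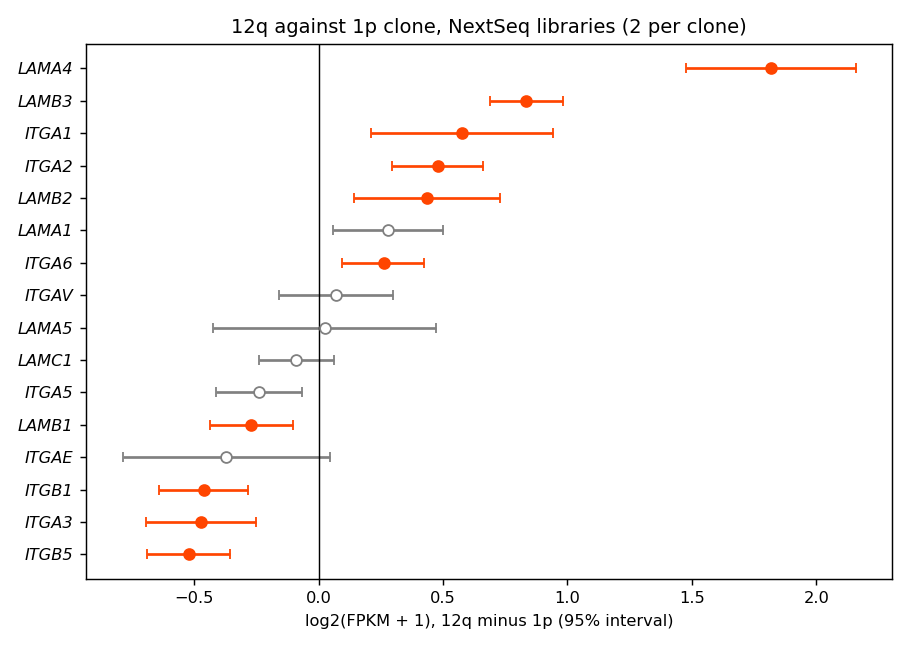
Difference of log2(FPKM + 1) between the 12q and 1p clones for the 16 NextSeq subunits tested, with 95 % intervals from limma. Filled points are the 10 subunits with an adjusted p under 0.05, of which LAMA4 (1.82) and LAMB3 (0.83) are the farthest above 0 and ITGB5 (-0.52) the farthest below.

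The HiSeq table compared the 3 libraries of the 8p site with the 3 of the other clones. ITGB1 was higher in 8p, with 250 to 308 FPKM against 181 to 195 FPKM (log2 difference 0.58 ± 0.13 SE, limma adjusted p = 0.0461). It was the 1 subunit of 17 that was called, where 5.17 % of 11357 genes were called. The median log2 difference of all genes was 0.215, that is towards 8p, and that of the 17 subunits was 0.05, which is below it. After the libraries were centred on their medians, ITGB1 was no longer called, and the share of calls that were higher in 8p went from 79.4 % to 43.0 %. With the 3 libraries of the 8p site averaged to 1 value, limma called no subunit and no gene. Leaving out any 1 library other than 12q DOX also ended the ITGB1 call, and without 12q DOX both ITGB1 and ITGA1 were called.

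LAMC1 (0.71 ± 0.19), LAMB1 (0.70 ± 0.19) and ITGA1 (0.73 ± 0.26) had larger differences than ITGB1 but did not pass (limma adjusted p = 0.0709, 0.0732 and 0.12). Each 8p library was above each of the other clones for LAMC1, LAMB1, ITGB1, ITGA1, ITGA6 and ITGAV, and below each for LAMB3. The share of all genes with such a separation was not counted. LAMA1 was below the other clones in each 8p library, at 3.80 to 4.97 FPKM against 5.92 to 13.3 FPKM, and did not pass either (-0.81 ± 0.27, limma adjusted p = 0.11). ITGB5 lies on the long arm of chromosome 3, for which the methods of the study give an isochromosome in this line. Its difference of -0.29 ± 0.20 was close to the median of -0.297 for the 89 genes within 10 Mb, and the part of copy number in it was not tested.

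The 1p XIST DOX and 1p vector DOX libraries share the site and the treatment and differ in the transgene and the clone. With 1 library each, 5 of 17 subunits were past 1.5-fold on the log2(FPKM + 1) scale, where 20.7 % of all genes were. With a pseudocount of 0.1 there were 8, with ITGA1, ITGAE and LAMA5 added. LAMA4 (12.4 against 4.07 FPKM), ITGA2 (16.2 against 8.43) and LAMB2 (10.9 against 6.54) were higher with XIST. LAMA1 (5.92 against 13.3 FPKM) and ITGAX (0.423 against 6.58) were higher in the vector library. ITGAX, the α chain of a leukocyte integrin (CD11c), was at 0.168, 0.411 and 0.427 FPKM in the 8p libraries (No DOX, then DOX), 0.639 in HiSeq 12q DOX, 0.263 and 0.208 in NextSeq 1p and 0.649 and 0.847 in 12q, so that the vector library stood alone. It passed the HiSeq filter through that library only, as the other 5 averaged 0.414 FPKM. Its place among the 5 subunits past 1.5-fold is therefore no support for a difference. Its neighbour in the leukocyte integrin cluster, ITGAM, was at 0.0324 FPKM in the vector library. All 5 leukocyte markers were under 1 FPKM in every library, PTPRC was listed at 0 in all of them, and their sum in the vector library was 0.013 FPKM, the lowest of the 10.

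With DOX, the 8p libraries had more of most expressed subunits, and the test over the 1p and 12q clones called none. The difference between these results lies across tables and was not tested. Both 8p DOX libraries were above the No DOX library for 15 of the 17 subunits, as they were for 36.5 % of all 11357 genes, a count made after the data had been seen. Limma called 11 of 17 subunits, where 31.3 % of all genes were called. All 11 were higher with DOX, and 11.5 % of all genes were called in that direction. ITGAX, among them, was tested only because of its level in the vector library, outside this comparison. With the filter set on the 3 libraries of the 8p site instead, a choice made after the data had been seen, ITGAX left and ITGB8 entered, and 11 of 17 subunits were again called, where 35.2 % of 11301 genes were. ITGB8 was then the 1 called subunit that was lower with DOX (1.76 against 0.904 and 0.886 FPKM). It reached that filter only through the No DOX library, where it was high, so its call is no support for a decrease with DOX. The median difference was 0.341 over the subunits and -0.058 over all genes. The spread in this fit came from the 2 DOX libraries alone, with 1 library in the No DOX arm assumed to vary alike. When the spread was pooled with the 3 other HiSeq libraries, no subunit was called, so the calls rest on the closeness of the 2 DOX libraries. With a DOX library left out, the spread came from the other clones alone, so that fit cannot test the calls. The LAMB3 difference was then 0.68 without DOX 1 and 0.73 without DOX 2. With no filter on FPKM, limma called 0 subunits and 0 genes.

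LAMB3 rose from 68.2 to 112 ± 2.46 FPKM (SD, n = 2), a log2 difference of 0.71 ± 0.07 SE (limma adjusted p = 0.0157). In FPKM the ratio of each DOX library to No DOX was 1.67 and 1.62 for LAMB3 and 1.71 and 1.72 for LAMA5, so that their order depends on the added 1. LAMA5 (0.59 ± 0.08), LAMA4 (0.55 ± 0.11), LAMC1 (0.53 ± 0.09) and LAMB2 (0.30 ± 0.08) were also called, with adjusted p from 0.0178 to 0.0491. LAMB1 was higher in both DOX libraries but did not pass (0.30 ± 0.08, adjusted p = 0.0593), and LAMA1 was lower in both (-0.26 ± 0.09, adjusted p = 0.0988).

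Of the integrins, ITGA3 rose from 121 to 182 ± 5.86 FPKM (SD, n = 2; 0.59 ± 0.08 SE, limma adjusted p = 0.0179). ITGA5 (0.49 ± 0.07), ITGA2 (0.46 ± 0.10), ITGA6 (0.41 ± 0.09), ITGB5 (0.34 ± 0.08) and ITGAX (0.28 ± 0.05) were also called. ITGAX, at 0.168 FPKM without and 0.411 and 0.427 FPKM with DOX, was tested only because of its level in the vector library. ITGB1 was at 250 FPKM without and 298 ± 13.4 FPKM (SD, n = 2) with DOX and did not pass (0.25 ± 0.09, limma adjusted p = 0.0944). ITGAE was lower in both DOX libraries (-0.31 ± 0.12, adjusted p = 0.126), and ITGA1 and ITGAV were higher without passing.

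The other HiSeq clones, all with DOX, give a scale for these values. The No DOX value of the 8p site lay inside the range of the 3 other clones for 4 of 17 subunits, where it did for 34.4 % of all genes. Both DOX values lay inside it for 5, where they did for 35.3 % of all genes. For LAMB3, the 8p No DOX value of 68.2 FPKM was below the range of 118 to 150 FPKM, and the DOX values of 114 and 110 were just below it. For LAMA5 the No DOX value of 2.44 FPKM was below the range of 3.27 to 5.32 FPKM, and the DOX values, both 4.18, were inside. For LAMC1, LAMB1, ITGB1, ITGA1, ITGA6 and ITGAV all 3 libraries of the 8p site were above the other clones, with and without DOX. Some gaps were small, as for ITGA1 (1.73 FPKM in 8p No DOX against at most 1.70) and ITGA6 (89.7 against at most 87.2). The share of all genes with this separation was not counted, and the median of all genes was also towards 8p (0.215).

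In the NextSeq table DOX was tested over both clones, with the clone as covariate. Limma called 0 of 16 subunits, and 0.00877 % of all genes, that is 1 of 11397. At an unadjusted p under 0.05 there were 1 subunit, LAMB3, and 746 genes, and the lowest adjusted p of a subunit was 0.702. LAMB3 differed by -0.32 ± 0.06 (95 % interval -0.47 to -0.18) and was lower with DOX in both clones (126 to 99.4 FPKM in 1p and 223 to 180 in 12q). For ITGA3 the interval ran from -0.35 to 0.09 and for ITGB1 from -0.07 to 0.29. In single pairs on the log2(FPKM + 1) scale, no subunit of 16 was past 1.5-fold in 1p, where 1.09 % of genes were, and none in 12q, where 2.91 % were. With a pseudocount of 0.1, LAMA5 (3.29 to 1.86 FPKM) and ITGAE were past it in 12q.

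None of the subunits lies on chromosome 8, and those on the other host chromosomes are far from the transgene. LAMC1 and LAMB3 lie 142 and 168 Mb from MACF1, the host gene of the 1p integration. ITGA5, ITGA7 and ITGB7 lie 54.3 to 56.8 Mb from FAM222A (listed as C12orf34), the host gene of the 12q integration.

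**Figure D4:**
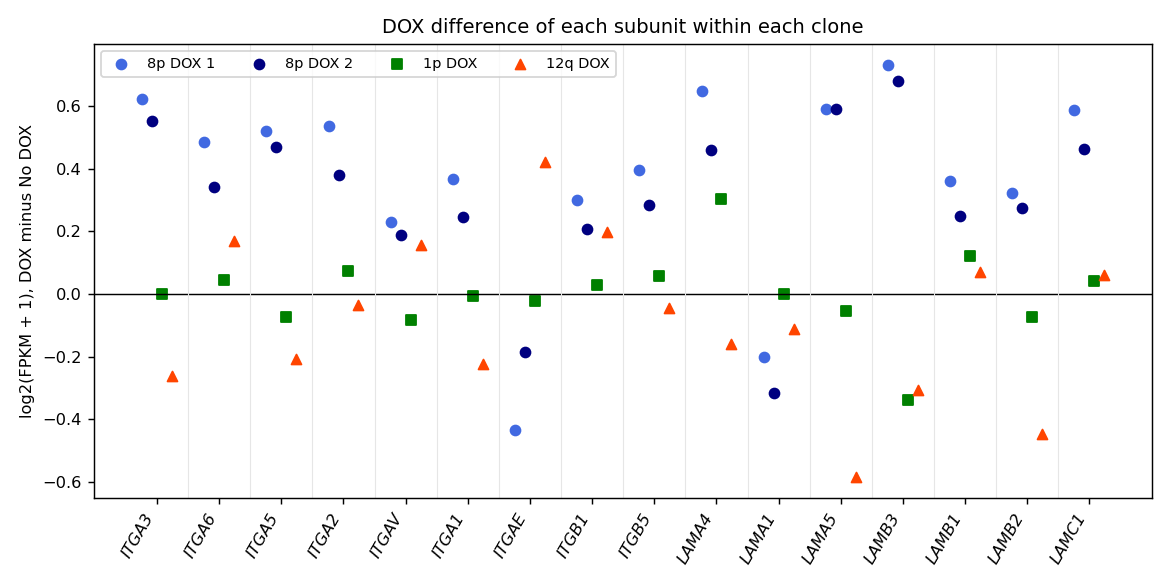
Difference of log2(FPKM + 1) between DOX and No DOX for the 16 subunits that passed in both tables, with circles for each 8p DOX library against the shared 8p No DOX library and squares and triangles for the 1p and 12q pairs. The 8p circles lie above 0 for all but ITGAE and LAMA1 and are highest for LAMB3 (0.73 and 0.68), while the 1p and 12q points lie on both sides of 0.

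Partners of integrins and laminins were counted from lists of genes known for these roles. Of 26 integrin adaptor and signalling genes 22 were tested in each table. In 12q against 1p, where 32.8 % of all genes were called, 3 were higher and 10 lower (median -0.231), among them the talin TLN2 (-1.00 ± 0.09), the kindlin FERMT1 (-1.05 ± 0.09) and the actin cross-linker FLNA (-0.62 ± 0.08) on the lower side and VCL, FERMT2 and BCAR1 on the higher side. In the 8p site against other clones (5.17 % of all genes called) 3 were higher, PARVA, LIMS1 and TNS3, and 0 lower (median 0.206, all genes 0.215). With DOX in the 8p libraries, where 31.3 % of all genes were called, 1 was higher, TGFB1I1, and 2 were lower, KANK2 and ITGB1BP1 (median -0.057).

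Of 12 basement membrane partners and other laminin receptors, 11 were tested in the NextSeq and 10 in the HiSeq table. In 12q against 1p 2 were higher and 4 lower, where 32.8 % of all genes were called. NID1, which links laminin to collagen IV, was higher in 12q than in 1p (0.98 ± 0.07, limma adjusted p = 0.00378), as was HSPG2, while NTN4, SDC1, BCAM and CD151 were lower. BCAM, a receptor for laminin α5, was higher in 8p than in the other clones (1.29 ± 0.23, limma adjusted p = 0.0308), the 1 gene of 10 called there, where 5.17 % of all genes were. With DOX in the 8p libraries AGRN (0.67 ± 0.07), HSPG2 (0.55 ± 0.07) and BCAM (0.39 ± 0.07) were higher and SDC4 was lower, where 31.3 % of all genes were called. The list medians were 0.114 for 12q against 1p, 0.625 for 8p against the others and -0.051 for DOX in 8p.

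Of 15 integrin ligands outside the laminins 10 were tested in each table. In 12q against 1p, where 32.8 % of all genes were called, 5 were higher and 4 lower (median 0.194), with CTGF highest (1.74 ± 0.16) and THBS1 lowest (-1.54 ± 0.11). FN1, the ligand of α5β1, was at 69.0 and 87.5 FPKM in NextSeq 1p and at 34.1 and 25.9 in 12q. In 8p against the other clones THBS1 and ADAM9 were higher and SPP1 lower (median 0.504), where 5.17 % of all genes were called. SPP1 was at 0 to 0.0191 FPKM in the 8p libraries and at 6.5, 1.79 and 11.5 in 1p XIST, vector and 12q DOX. It reached the filter only through those other clones, so its call is no support for a lower level in 8p. With DOX in 8p, TNC (0.99 ± 0.08), FN1 (0.72 ± 0.10) and CTGF (0.58 ± 0.10) were higher and THBS1 lower (median 0.177), where 31.3 % of all genes were called. DOX in the NextSeq table called none of the genes of the 3 lists by limma, and the lowest adjusted p was 0.702.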

How the data were processed

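Reads were aligned by the authors to hg18 with Tophat, and gene levels were deposited in FPKM as estimated by Cufflinks, for 6 HiSeq and 4 NextSeq libraries in separate tables. Versions and annotation were not given in the sources used here. Of 16 samples, the ChIP-seq samples were not analysed here. Repeated symbols (739 lines in HiSeq and 882 in NextSeq), date-like symbols and 2 NextSeq genes lacking a value were dropped, which kept 22892 and 25606 genes. Comparisons were made only within a table.

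Genes averaging 1 FPKM or more in a table were tested on log2(FPKM + 1) with limma 3.58.1 in R 4.3.3 (lmFit, eBayes with trend, two-sided, Benjamini-Hochberg adjustment over all genes tested, called under 0.05). The p-values measure only the spread between these libraries, which may be technical. Single pairs were counted past 1.5-fold on the same log2(FPKM + 1) scale with no test. Values in every library were given for subunits called, past 1.5-fold or among the highest of their class. Of the genes that fit the symbol rule, 1 is not reported here and enters no count of subunits. The members, lists and tests were chosen with earlier results of these data known. The fits were tested on simulated data. They recovered nearly all large changes, which does not show how well smaller ones were recovered. Apart from LAMA4 between the NextSeq clones, subunits called in the main fits differed by at most 0.835 either way on the log2 scale. With variances held fixed, the fits with 1 residual degree of freedom made clearly more false calls than the threshold allows. With variances drawn from limma's posterior they made only slightly more. The subunit calls between the NextSeq clones and for DOX in the HiSeq table came from such fits. More of these calls may therefore be false than the threshold states. Positions are those of the HiSeq table (hg18), and promoters are from RefSeq (GRCh38.p14). Alternatives were other pseudocounts, filters, centring, fits without trend or covariate, and left-out libraries. Counts and ratios were taken in Python 3.11.15 (pandas 2.3.3).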

Additional observations from a re-analysis of the deposited data

Results flagged for a closer look

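In 5 subunits the DOX differences went in opposite directions, higher in both 8p DOX libraries and lower in the 1p and 12q pairs. The log2 differences in 8p were 0.71 for LAMB3, 0.59 for LAMA5, 0.49 for ITGA5, 0.31 for ITGA1 and 0.30 for LAMB2. The same genes differed by -0.34 and -0.30 (LAMB3), -0.05 and -0.58 (LAMA5), -0.07 and -0.21 (ITGA5), -0.008 and -0.22 (ITGA1) and -0.08 and -0.44 (LAMB2) in 1p and 12q. Such a pattern was seen in 31.2 % of the 16 subunits and in 21.7 % of the 10196 genes that passed in both tables. The difference was not tested, since 8p was in the HiSeq table and the other clones in the NextSeq table, and each rests on 1 No DOX library. No group had enough libraries for a test of single outlying values.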

How the results depend on the processing

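Across the alternatives run, no subunit called in a comparison changed its direction, and of 207 such values 116 kept and 91 lost their call. With no filter on FPKM, the subunits called went from 1 to 0 in 8p against other clones and from 11 to 0 for DOX in 8p (0 genes). In 12q against 1p they went from 10 to 6 (1971 in place of 3742 genes). The 6 were LAMB3, ITGB5, ITGA2 and LAMA4 of the 10, with ITGB3 and ITGB2, which had been under the filter. For 8p against other clones, 0 were called also after centring, without the trend and with 8p averaged to 1 value, and leaving out a library gave 0 to 2. Leaving out a library gave 1 to 9 in 12q against 1p, and 175 to 3504 genes, in fits without the DOX term. For DOX in 8p, 0 were called with the spread pooled with the 3 other libraries (10 genes) and 0 to 0 with a DOX library left out, where the lone libraries were assumed to vary like the other clones. After centring 15 were called there, and the share of all calls that were higher went from 36.7 % to 51.0 %. With a pseudocount of 0.1, 2 subunits (ITGAE and LAMA5) in place of 0 were past 1.5-fold in 12q DOX against No DOX, and 8 in place of 5 in 1p XIST against vector. DOX in the NextSeq table called 0 subunits under each alternative run. The causes were not tested. No paired analysis was possible by replicate number, because the groups compared shared 1 number at most. The NextSeq fits pair the libraries by clone and treatment, and with the pairing term dropped the subunits called were 8 in 12q against 1p and 0 for DOX. FPKM give no depth, so no limit from depth was set.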
